A study of Mus musculus with 16 samples.

Results

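The 33 genes described here encode myelin proteins and other products of mature oligodendrocytes, the cells that wrap axons of the central nervous system in myelin. They were taken from a list of gene names, and all 33 were found among the 49315 genes of the table. After removal of genes with low counts 17469 genes were tested, among them 32 of the 33. RNA was sequenced from the hippocampus of 16 mice in 4 groups of 4. Wild type and Kcna1 knockout animals were each fed either a standard or a ketogenic diet. Kcna1 encodes a subunit of a voltage-gated potassium channel of axons, its loss gives mice with spontaneous seizures, and a ketogenic diet is rich in fat and poor in carbohydrate. The labels give no age, sex, strain, diet duration or allele, and name no promoter or Cre driver.

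Oligodendrocytes arise from precursor cells, pass through a newly formed stage and then switch on the genes of myelin under transcription factors that include Sox10, Olig2 and Myrf. Compact myelin is held together by small membrane and basic proteins and is rich in galactolipids and cholesterol, while the innermost layer faces the axon through adhesion molecules such as Mag. In the hippocampus, myelinated fibres run mainly in the alveus, the fimbria and the deep layers.

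Total counts ranged from 13440230 to 22309504 per library. Libraries are named by the animal tag in their column, and values are listed in a fixed order: first wild type with KC890RL, KC894RLL, KC897RR and KC900RLL on the standard diet and KC842L, KC843RL, KC844RR and KC846L on the ketogenic diet, then the knockout with KC872RL, KC873RR, KC888LL and KC893RL on the standard diet and KC913RR, KC916RRL, KC934R and KC935LL on the ketogenic diet. Levels are in CPM, the count of a gene relative to the effective library size. Kcna1 was 118, 129.7, 118 and 116 CPM and 115, 130.1, 107 and 114 CPM in wild type on the standard and ketogenic diets, 46.4, 44.6, 82.0 and 47.0 CPM in libraries labelled knockout on the standard diet and 43.4, 44.6, 47.2 and 43.5 CPM in those on the ketogenic diet. KC888LL, a library labelled knockout, lay between the genotypes. Xist without Y-linked expression was found in 3 wild type libraries on each diet. In the knockout it was found in 2 libraries on the standard and 4 on the ketogenic diet. KC890RL, KC872RL, KC873RR and KC846L expressed the Y-linked gene Ddx3y. KC890RL also had 41.1 CPM of Xist, against 4.43, 5.48 and 8.84 CPM in KC872RL, KC873RR and KC846L. Gfap, a gene of reactive astrocytes, was at 2327 and 1340.0 CPM in KC872RL and KC873RR and at 2018 and 1059 CPM in KC913RR and KC934R.

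Myelin and oligodendrocyte genes were lower on the ketogenic diet. In the knockout, all 32 tested genes had a lower mean on the ketogenic diet, 20 of them fell at an adjusted p under 0.05 in edgeR's quasi-likelihood test over all tested genes, and the median log2 fold change was -0.79, with a range from -1.08 to -0.21. Among all tested genes 1.16% passed that threshold in either direction, 0.95% were lower, and the median was 0.01. Without KC872RL 6 members were called, without KC873RR 8, and without both, as among Xist-expressing libraries, 0, with a median of -0.78 in both of these settings. The share of all genes called was 0.158%, 0.26%, 0.0112% and 0.0169% in these fits, in that order. In wild type all 32 genes were again lower on the ketogenic diet with a median of -0.43, but 0 passed in edgeR, where 0.0114% of all genes passed. The smallest adjusted p of a member in wild type was 0.424, and 23 of the 32 were at an unadjusted p under 0.05, as were 5.46% of all tested genes. DESeq2 called 1 member in wild type, Gjb1, among 12 of 33151 genes called (0.0362%). With the diet effect averaged over both genotypes, 22 of 32 fell, with a median of -0.63. Of all genes 0.899% were called in either direction and 0.761% were called lower. Without KC872RL and KC873RR 10 members were called, with 0.251% of all genes, all 32 lower and a median of -0.61. Among Xist-expressing libraries 0 were called, with 0.00563% of all genes, 31 of 32 lower and a median of -0.53. Changes of single genes are given below as log2 fold changes ± SE from the edgeR fit with all libraries, unless a library is said to be left out. A negative sign or the word fell stands for a lower level on the ketogenic diet.

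The sum of the 33 genes gives the size of the difference in each animal. It was 6047, 5642, 5428 and 4019 CPM in wild type fed the standard diet and 5090.1, 5015, 5087 and 5364 CPM in the knockout on that diet. On the ketogenic diet it was 3865, 4246, 3963 and 3408 CPM in wild type and 2114, 3114, 2752 and 3745 CPM in the knockout. In the same order the group means were 5284 ± 882, 5139 ± 154, 3871 ± 348 and 2931 ± 682 CPM (SD, n = 4 each). All knockout libraries on the ketogenic diet lay below all 8 libraries on the standard diet, whereas KC843RL, in wild type on the ketogenic diet, lay above KC900RLL on the standard diet. KC913RR and KC934R, the lowest of the knockout on the ketogenic diet, had Gfap at 2018 and 1059 CPM. Gfap was at 288 and 295 CPM in KC916RRL and KC935LL, and KC935LL lay within the wild type range on that diet. On the standard diet KC872RL and KC873RR, also high in Gfap, had sums close to that of KC888LL. A link between Gfap and the members was not tested. In a tissue sample, fewer oligodendrocytes and less RNA of these genes per oligodendrocyte cannot be told apart.

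**Figure D1:**
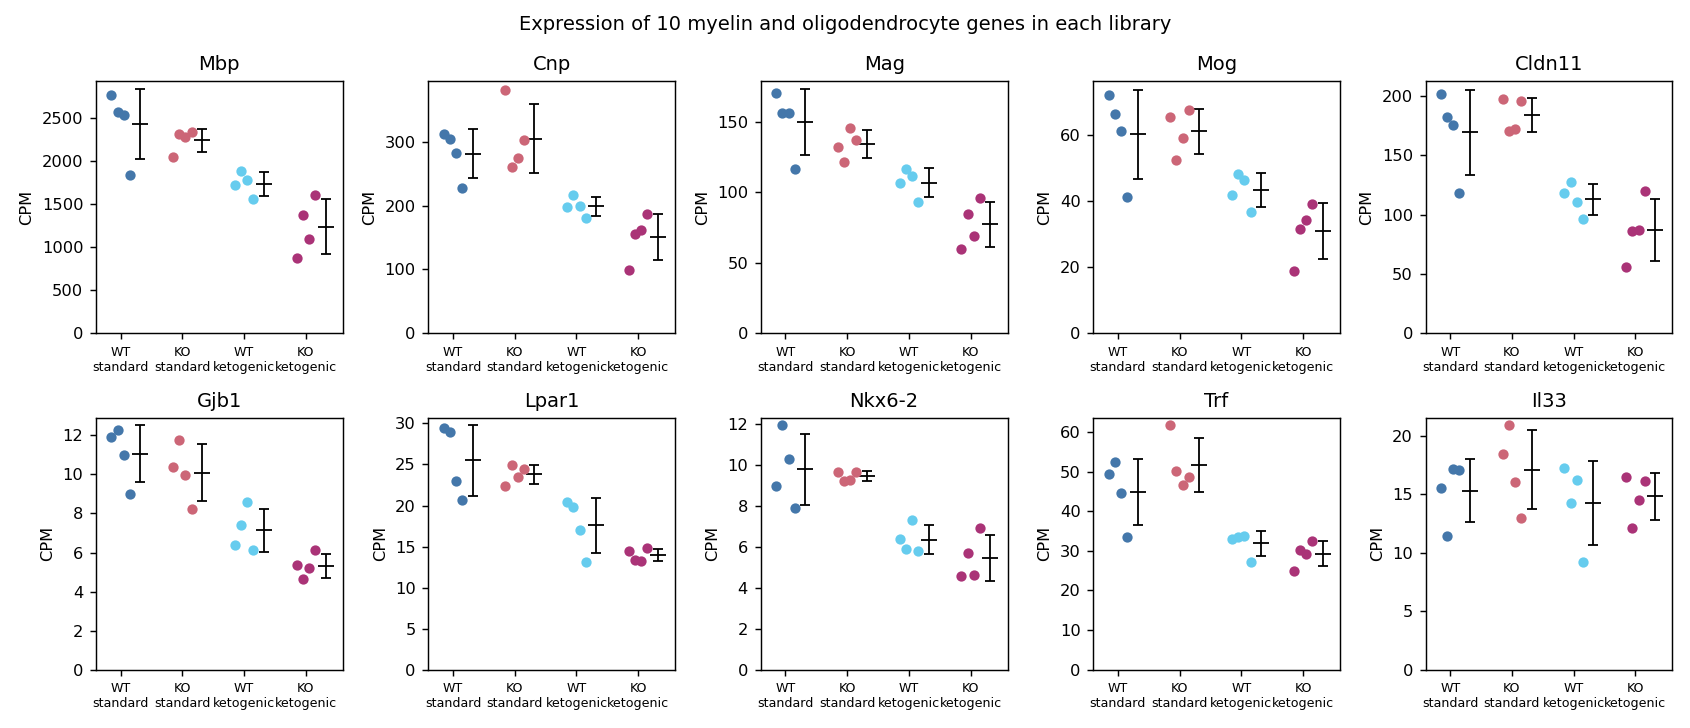
CPM of 10 myelin and oligodendrocyte genes (vertical axes, each from 0) in the 16 libraries, by group; each point is 1 library, and the bar beside it is the group mean with its SD (n = 4). The knockout on the ketogenic diet is lowest for most genes shown, and Il33 overlaps across all 4 groups.

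By the mean level per kilobase of exon over the 16 libraries, Mbp was the most abundant member at 225 CPM per kb, followed by Mobp at 95.7, Cldn11 at 74.0, Cnp at 64.5 and Qdpr at 62.6. At the other end Anln was at 3.53, Aspa at 1.95 and Klk6 at 0.492 CPM per kb. The sum therefore follows Mbp and Mobp, and the mean of log2 CPM over the 32 tested genes weights them equally. That mean was 5.79 ± 0.24 and 5.82 ± 0.052 on the standard diet in wild type and knockout, and 5.41 ± 0.17 and 5.09 ± 0.27 on the ketogenic diet (SD, n = 4 each).

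Compact myelin proteins and other membrane proteins of oligodendrocytes form the core of the list, among them Gjb1, which encodes a gap junction connexin of non-compact myelin. All 7 were lower on the ketogenic diet in the knockout with a median log2 fold change of -0.89, and 6 fell (Mbp, Mobp, Pllp, Cldn11, Tspan2 and Gjb1). Mal, a proteolipid of myelin rafts, was at -0.89 ± 0.21 in the knockout with an adjusted p of 0.0663, and it fell in the averaged contrast, with an adjusted p of 0.0494. In wild type the 7 genes had a median of -0.49 and 0 were called.

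Mbp encodes myelin basic protein, which joins the cytoplasmic faces of the myelin membrane. Mbp was at 2766, 2561, 2526 and 1838 CPM in wild type and 2040.1, 2306, 2273 and 2328 CPM in the knockout on the standard diet. Mbp values on the ketogenic diet were 1716, 1881, 1770.4 and 1556 CPM in wild type and 866, 1374, 1096 and 1606 CPM in the knockout. All 4 knockout libraries on the ketogenic diet were below the lowest library on the standard diet, and the fold change in the knockout was -0.86 ± 0.16 on the log2 scale (SE), an adjusted p of 0.0210. In wild type the groups overlapped only through KC900RLL and KC843RL, and the fold change was -0.49 ± 0.16.

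Cldn11 encodes claudin 11, which forms the tight junctions between myelin layers. Cldn11 on the standard diet had 202, 182, 175 and 118 CPM in wild type and 198, 171, 172 and 196 CPM in the knockout. Cldn11 was at 118, 127, 111 and 96.1 CPM in wild type and 55.5, 85.8, 87.0 and 120.0 CPM in the knockout on the ketogenic diet. The knockout showed the lowest fold change of any member, -1.08 ± 0.20, with an adjusted p of 0.0232. KC935LL, the highest of the knockout libraries on the ketogenic diet, was about level with KC900RLL, the lowest on the standard diet.

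Gjb1 encodes connexin 32, a gap junction protein of oligodendrocytes. Gjb1 reached 11.9, 12.3, 10.988 and 9.02 CPM in wild type and 10.4, 11.8, 9.96 and 8.25 CPM in the knockout on the standard diet. Gjb1 on the ketogenic diet was at 6.40, 7.39, 8.60 and 6.15 CPM in wild type and 5.35, 4.64, 5.19 and 6.11 CPM in the knockout. In the averaged contrast Gjb1 had the smallest p of all members, with a log2 fold change of -0.78 ± 0.10 and an adjusted p of 0.00163. Each library on the ketogenic diet was lower than each of its genotype on the standard diet, and in wild type the change was -0.63 ± 0.14, for an adjusted p of 0.424.

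Tspan2 encodes a tetraspanin and Pllp encodes plasmolipin, both membrane proteins of myelin. Tspan2 was at 179, 153, 138 and 112 CPM in wild type and 172, 151, 149 and 169.8 CPM in the knockout on the standard diet. Tspan2 values on the ketogenic diet were 113, 122, 105 and 95.2 CPM in wild type and 84.3, 83.8, 87.8 and 109 CPM in the knockout. Tspan2 fell by 0.81 ± 0.12 in the knockout, and its knockout libraries on the 2 diets did not overlap. Pllp on the standard diet had 14.6, 15.6, 18.2 and 12.5 CPM in wild type and 26.5, 17.7, 15.5 and 17.2 CPM in the knockout. Pllp was at 9.65, 13.2, 10.3 and 11.6 CPM in wild type and 7.83, 8.23, 9.78 and 10.9 CPM in the knockout on the ketogenic diet. Pllp fell by 1.07 ± 0.16 in the knockout, and KC872RL was the highest library. Exons of Pllp share 1128 bases with a gene on the other strand, and the use of strand in counting is not given in the sources used here, so its reads cannot be assigned with certainty. Exons of Cnp, Cryab, Ermn, Mobp, Ndrg1, Nkx6-2, Plekhh1, Qdpr, S1pr5 and Tspan2 also share bases with a neighbouring gene, over a shorter length.

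Mag, Mog and Opalin, glycoproteins of the myelin surface, fell in the knockout. Hapln2, which was only grouped with them, was at -0.35 ± 0.16 with an adjusted p of 0.261. Mag encodes myelin-associated glycoprotein, which faces the axon. Mag reached 171, 156, 156 and 116 CPM in wild type and 132, 122, 146 and 138 CPM in the knockout on the standard diet. Mag on the ketogenic diet was at 106, 117, 112 and 93.3 CPM in wild type and 59.9, 84.4, 69.1 and 95.7 CPM in the knockout. The log2 fold change of Mag was -0.80 ± 0.13 in the knockout and -0.49 ± 0.13 in wild type, with adjusted p-values of 0.0144 and 0.743. Mog encodes a glycoprotein of the outermost myelin layer. Mog was at 72.0, 66.4, 61.1 and 41.1 CPM in wild type and 65.5, 52.4, 59.0 and 67.4 CPM in the knockout on the standard diet. Mog values on the ketogenic diet were 41.7, 48.3, 46.3 and 36.8 CPM in wild type and 18.9, 31.6, 34.3 and 38.9 CPM in the knockout. Mog fell by 0.98 ± 0.20 in the knockout, and KC913RR was lower than the other 3 knockout libraries on the ketogenic diet. Opalin, a membrane glycoprotein of oligodendrocytes, was low in both KC900RLL and KC913RR relative to their groups. Opalin on the standard diet had 15.8, 15.3, 15.4 and 10.2 CPM in wild type and 14.989, 11.6, 14.4 and 15.5 CPM in the knockout. Opalin was at 10.6, 11.7, 10.2 and 8.29 CPM in wild type and 4.62, 8.45, 9.23 and 8.93 CPM in the knockout on the ketogenic diet. Its change in the knockout was -0.85 ± 0.19, for an adjusted p of 0.0337.

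In the group of cytoskeletal and inner-layer proteins 1 of 5 genes fell in the knockout. That gene, Cnp, encodes a phosphodiesterase that keeps cytoplasmic channels of myelin open. Cnp reached 314, 305, 284 and 228 CPM in wild type and 382, 261, 275 and 304 CPM in the knockout on the standard diet. Cnp on the ketogenic diet was at 199, 217, 201 and 181 CPM in wild type and 99.4, 156, 163 and 187 CPM in the knockout. All 8 libraries on the ketogenic diet were below all 8 on the standard diet, and Cnp had a log2 fold change of -1.02 ± 0.17 in the knockout, -0.50 ± 0.17 in wild type and -0.76 ± 0.12 averaged. Ermn, Gsn, Plekhh1 and Anln had fold changes from -0.88 for Gsn, an actin-severing protein, to -0.40 for Anln, and their adjusted p-values ran from 0.0811 to 0.369. Leaving out 1 library moved Anln between -0.54 and -0.23 in the knockout.

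Enzymes and carriers of lipid and metabolite handling had a median log2 fold change of -0.77 in the knockout, and Trf, Apod, Aspa and Qdpr fell out of 7. Trf encodes transferrin, which carries iron and is made by oligodendrocytes. Trf was at 49.5, 52.3, 44.6 and 33.4 CPM in wild type and 61.8, 50.2, 46.6 and 48.7 CPM in the knockout on the standard diet. Trf values on the ketogenic diet were 33.008, 33.6, 33.6 and 27.2 CPM in wild type and 25.0, 30.3, 29.1 and 32.5 CPM in the knockout. Trf fell by 0.82 ± 0.13 in the knockout and was at -0.50 ± 0.13 in wild type. Of the 3320 bases of its exons, 2108 are shared with a gene model on the same strand. The reads of Trf therefore cannot be assigned with certainty, whether or not strand was used. Aspa encodes aspartoacylase, which frees acetate from N-acetylaspartate. Aspa on the standard diet had 17.5, 14.004, 12.7 and 10.9 CPM in wild type and 11.7, 14.9, 15.4 and 13.7 CPM in the knockout. Aspa was at 12.9, 12.4, 10.4 and 8.61 CPM in wild type and 5.82, 7.85, 7.62 and 9.57 CPM in the knockout on the ketogenic diet. Aspa fell by 0.85 ± 0.17 in the knockout. The enzymes of galactolipid synthesis, Ugt8a and Fa2h, were at -0.77 ± 0.20 and -0.65 ± 0.20 in the knockout with adjusted p-values of 0.0845 and 0.130, and Ugt8a fell in the averaged contrast, where its adjusted p was 0.0469.

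Apod encodes apolipoprotein D, a lipid carrier. Apod reached 58.7, 52.4, 46.0 and 38.8 CPM in wild type and 87.1, 69.5, 53.7 and 50.6 CPM in the knockout on the standard diet. Apod on the ketogenic diet was at 41.6, 41.3, 44.2 and 36.3 CPM in wild type and 24.8, 27.7, 31.0 and 42.3 CPM in the knockout. The level was high in KC872RL and KC873RR, and Apod had the largest interaction of genotype and diet among members, at -0.79 ± 0.27 with an adjusted p of 0.654. Car2 encodes a carbonic anhydrase of oligodendrocytes, and Qdpr an enzyme that recycles tetrahydrobiopterin. Car2 was at 143, 152, 143 and 117 CPM in wild type and 116, 121, 133 and 115 CPM in the knockout on the standard diet. Car2 values on the ketogenic diet were 119, 125, 121 and 103 CPM in wild type and 78.5, 99.0, 89.2 and 107 CPM in the knockout. The diets did not overlap for Car2 in the knockout, with a fold change of -0.37 ± 0.09 and an adjusted p of 0.0567, and Car2 fell in the averaged contrast at -0.31 ± 0.07. Qdpr on the standard diet had 126, 138, 131 and 108 CPM in wild type and 109.9, 124, 119.6 and 117 CPM in the knockout. Qdpr was at 110.2, 117, 118 and 105 CPM in wild type and 78.5, 95.3, 93.0 and 99.8 CPM in the knockout on the ketogenic diet. Qdpr fell by 0.36 ± 0.08 in the knockout, a small change with a small error.

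Of the 4 receptors, Lpar1, S1pr5 and Plxnb3 fell in the knockout, and Gpr37 was at -0.24 ± 0.09 with an adjusted p of 0.178. Lpar1 encodes a receptor for lysophosphatidic acid. Lpar1 reached 29.4, 28.9, 23.0 and 20.6 CPM in wild type and 22.4, 24.9, 23.4 and 24.5 CPM in the knockout on the standard diet. Lpar1 on the ketogenic diet was at 20.5, 19.9, 17.0 and 13.1 CPM in wild type and 14.4, 13.4, 13.3 and 14.8 CPM in the knockout. Its 4 knockout libraries on the ketogenic diet lay within a narrow range, all 8 libraries on that diet were below all 8 on the standard diet, and the fold change was -0.77 ± 0.13 in the knockout and -0.65 ± 0.09 averaged. S1pr5 encodes a receptor for sphingosine 1-phosphate. S1pr5 was at 16.2, 13.6, 14.3 and 11.5 CPM in wild type and 13.6, 15.1, 14.8 and 14.1 CPM in the knockout on the standard diet. S1pr5 values on the ketogenic diet were 10.4, 13.7, 12.1 and 11.3 CPM in wild type and 5.69, 9.35, 7.13 and 10.7 CPM in the knockout. S1pr5 fell by 0.81 ± 0.15 in the knockout and was at -0.23 ± 0.15 in wild type, and the difference between these, tested as an interaction, had an adjusted p of 0.654. The wild type value ran from -0.31 to -0.15 with 1 library left out.

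Nkx6-2 is the one transcription factor among the members and is used by oligodendrocytes to regulate myelin genes. Nkx6-2 on the standard diet had 8.98, 11.9, 10.3 and 7.91 CPM in wild type and 9.66, 9.21, 9.25 and 9.64 CPM in the knockout. Nkx6-2 was at 6.40, 5.88, 7.31 and 5.78 CPM in wild type and 4.55, 5.68, 4.64 and 6.93 CPM in the knockout on the ketogenic diet. Averaged over genotypes it fell by 0.71 ± 0.10, and all 8 libraries on the ketogenic diet were below all 8 on the standard diet. Cryab encodes a small heat shock protein of oligodendrocytes. Cryab reached 41.4, 40.1, 39.4 and 34.5 CPM in wild type and 44.1, 33.7, 36.4 and 37.8 CPM in the knockout on the standard diet. Cryab on the ketogenic diet was at 27.7, 32.9, 33.2 and 22.2 CPM in wild type and 17.5, 23.7, 26.2 and 27.3 CPM in the knockout. Cryab fell by 0.68 ± 0.14 in the knockout and by 0.55 ± 0.10 averaged, again with no overlap of the diets. Tmem88b, a transmembrane protein gene for which no role is given, fell by 0.68 ± 0.14 in the knockout. Tmem88b was at 69.3, 68.1, 60.0 and 49.8 CPM in wild type and 55.3, 51.4, 65.5 and 60.1 CPM in the knockout on the standard diet. Tmem88b values on the ketogenic diet were 46.3, 51.7, 52.1 and 37.5 CPM in wild type and 28.0, 36.6, 35.1 and 44.6 CPM in the knockout. The 2 diets did not overlap in the knockout, while KC844RR and KC843RL in wild type were above KC900RLL.

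Ndrg1 and Il33 were the 2 tested members of largest p in the knockout. Ndrg1, a stress-responsive gene of myelinating cells, was at -0.28 ± 0.24 and Il33, a nuclear cytokine of oligodendrocytes, at -0.21 ± 0.19. Leaving out 1 library moved Ndrg1 between -0.431 and -0.147 and Il33 between -0.318 and -0.096 in the knockout. Klk6 encodes a secreted protease of oligodendrocytes and did not pass the filter on low counts. It had 16, 7, 5 and 1 counts in wild type and 111, 43, 5 and 7 counts in the knockout on the standard diet, and 4, 3, 1 and 5 and 4, 1, 2 and 2 counts on the ketogenic diet. The high libraries were KC872RL and KC873RR, which also had the highest Gfap of their group.

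Overlap of libraries gives the same order without a model. In the knockout, all ketogenic libraries were below all standard libraries for 27 of the 32 members, where 3.72% of all tested genes did so. In wild type this held for 5 members (Gjb1, Cnp, Lpar1, Nkx6-2 and Cryab) against 2.42% of all genes. Over both genotypes together it held for 4 members, Cnp, Lpar1, Nkx6-2 and Cryab, against 0.172% of all genes.

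**Figure D2:**
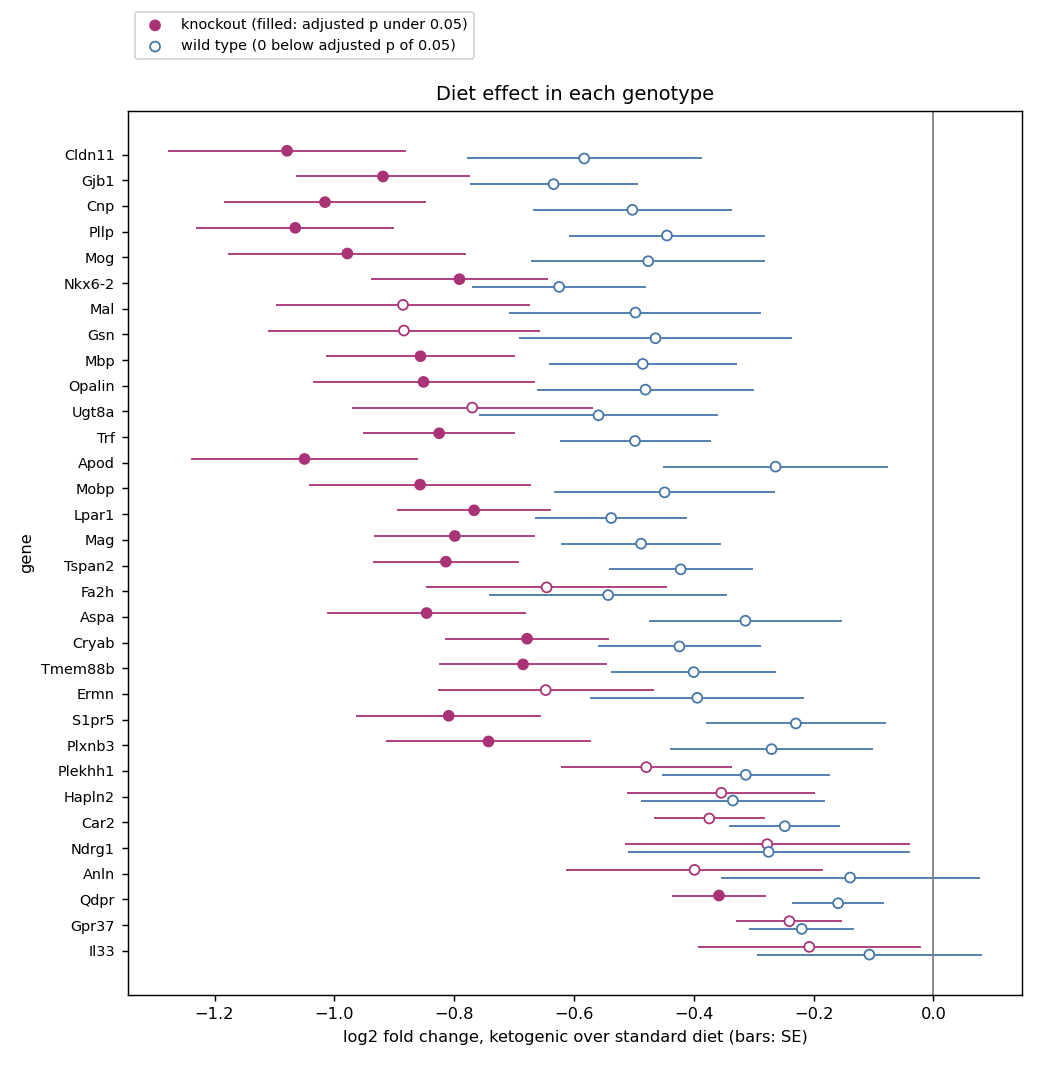
Log2 fold change of ketogenic over standard diet (horizontal axis, bars are SE) for the 32 tested genes (vertical axis) in the knockout and in wild type, 4 libraries a group; filled points passed an adjusted p of 0.05. All points lie below 0 and the knockout lies farther from 0 for every gene.

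The diet effect was farther from 0 in the knockout than in wild type for all 32 members, but the test of that difference called 0 members in edgeR, as it called 0 of all tested genes (0%). The interaction had a median of -0.30 log2 and 6 of 32 members at an unadjusted p under 0.05, where 7.48% of all tested genes were. DESeq2 called 0 members and 0.0121% of 33151 genes. With 1 library left out, 28 to 32 members had an interaction below 0, and the median ran from -0.40, without KC935LL, to -0.20, without KC900RLL. The 3 of smallest p were Apod, S1pr5 and Pllp, each with an adjusted p of 0.654. The genotype contrasts use the same libraries as the diet contrasts.

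Between genotypes on the standard diet the members lay on both sides of 0. Of the 32 members 18 were lower and 14 higher in the knockout, the median was -0.02, and 0 passed in edgeR, where 0.00572% of all genes passed, or in DESeq2. At an unadjusted p under 0.05 there were 3 of 32 members, against 14.3% of all tested genes. The 3 of smallest p were Apod at 0.41 ± 0.19, Car2 at -0.20 ± 0.09 and Pllp at 0.34 ± 0.16, with adjusted p-values of 0.328, 0.336 and 0.342. Leaving out 1 library moved Apod between 0.244 and 0.522, Car2 between -0.269 and -0.151 and Pllp between 0.145 and 0.439. On the ketogenic diet 30 of 32 were lower in the knockout with a median of -0.32, and 0 passed in edgeR, against 0.0172% of all genes, or in DESeq2. An unadjusted p under 0.05 was found for 12 of 32 members and 9.22% of all tested genes. With 1 library left out the median on the standard diet ran from -0.14, without KC900RLL, to 0.07, without KC890RL, and on the ketogenic diet from -0.42, without KC846L, to -0.21, without KC913RR. DESeq2 called 0.522% and 0.124% of 33151 genes on the standard and the ketogenic diet. Without KC888LL 0 members were called on the standard diet, against 5.73% of all genes. The smallest adjusted p on the ketogenic diet was that of Qdpr, 0.378, with a fold change of -0.30 ± 0.08. Only Anln and Il33 were higher in the knockout on that diet, at 0.07 ± 0.22 and 0.06 ± 0.19.

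**Figure D3:**
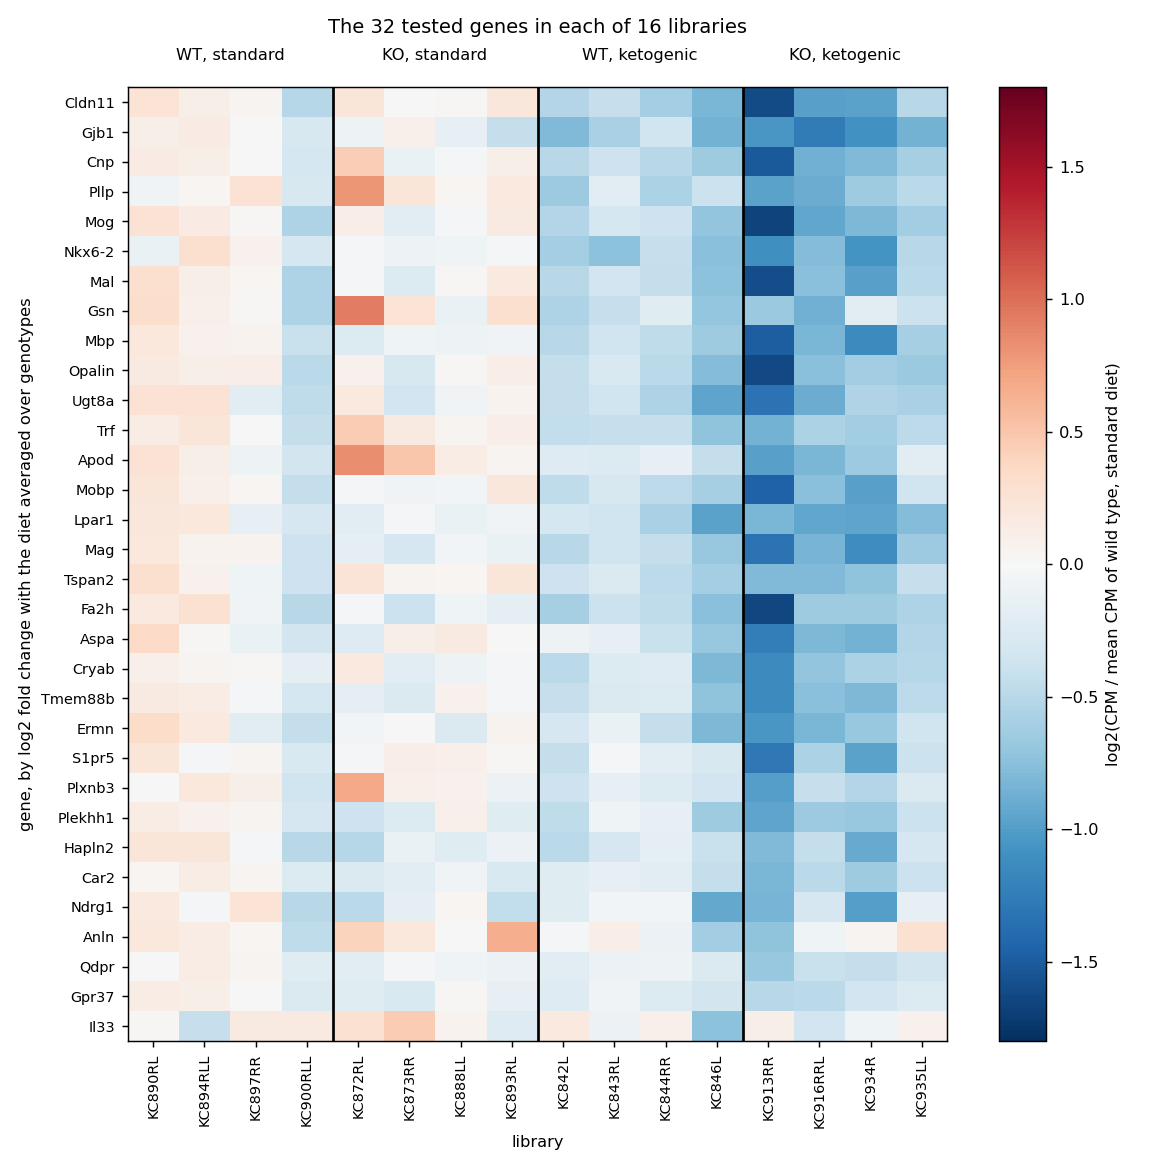
Log2 ratio of CPM to the mean of wild type on the standard diet (colour, from -1.8 to 1.8) for 32 genes (vertical axis, ordered by the averaged diet effect) in 16 libraries (horizontal axis, 4 a group). KC900RLL, KC846L and KC913RR are the lowest of their groups for most genes.

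The same libraries were low for most of the genes. KC900RLL was the lowest library of wild type on the standard diet for 31 of 32 members, KC846L the lowest of wild type on the ketogenic diet for 28, and KC913RR the lowest of the knockout on the ketogenic diet for 25, which were also the lowest values of all 16 libraries. KC935LL was the highest of its group for 28 members. In the knockout on the standard diet the lowest library varied, with KC873RR lowest for 13 members, KC872RL for 8, KC888LL for 6 and KC893RL for 5. The members therefore do not count as independent observations of a group.

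The calls rest on particular libraries. Members called in the knockout numbered 6 without KC872RL, 8 without KC873RR, 10 without KC916RRL and 11 without KC913RR, where 0.158%, 0.26%, 0.496% and 0.49% of all genes passed. With both KC872RL and KC873RR removed 0 members and 0.0112% of all genes were called, with 31 of 32 still lower and a median of -0.78. Those 2 libraries are the knockout libraries on the standard diet that express Ddx3y, while all 4 knockout libraries on the ketogenic diet express Xist. Among the 12 Xist-expressing libraries, 31 of 32 members were lower on the ketogenic diet in the knockout with a median of -0.78, and 30 of 32 in wild type with a median of -0.28, and 0 were called in either. Without KC888LL, the library with the intermediate Kcna1 level, 21 members were called and the median was -0.79, while the share called among all genes rose from 1.16% to 6.18%. With Xist as a covariate 1 member was called in the knockout, Lpar1, with 1 surrogate variable 0, and with only the compared groups in the fit 3, with all 32 lower in each, and 0.0401%, 0.0458% and 0.0535% of all genes called. Pllp, Tspan2, Gjb1, Trf and Lpar1 were called in the knockout whichever of the 8 libraries of these groups was removed. Averaged over genotypes the number called ran from 11, without KC846L, to 29, without KC900RLL, and 0.293% and 1.12% of all genes were called in these fits. Their medians were -0.59 and -0.68.

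Genes of the same lineage outside the 33 were read from lists of each stage. Of 31 other mature oligodendrocyte genes, 17 fell in the knockout on the ketogenic diet, the median was -0.67, and in wild type 1 fell, Adamts4, with a median of -0.30. Adamts4 encodes a protease of oligodendrocytes and was at -0.97 ± 0.11 in the knockout and -0.69 ± 0.11 in wild type. Of the 17 calls in the knockout, 5 were left without KC872RL, 6 without KC873RR and 2 without both, Adamts4 and Slc44a1, with a median of -0.64 without both. Of 9 tested genes of newly formed oligodendrocytes, Bcas1, Enpp6, Tcf7l2 and Kif19a fell in the knockout, at -1.25 ± 0.23, -2.04 ± 0.34, -1.24 ± 0.28 and -1.47 ± 0.28. Tcf7l2 is also expressed in the thalamus. KC872RL stood apart for this list, with a sum of 793 CPM against 433 to 477 CPM in the other libraries of its group. It had 315 CPM of Bcas1 against 149 to 174 CPM and 29.5 CPM of Enpp6 against 9.04 to 12.8 CPM. Without it Bcas1 and Enpp6 were still called, at -0.93 ± 0.14 and -1.54 ± 0.22, Tcf7l2 and Kif19a were not, at -0.92 ± 0.25 and -1.04 ± 0.21, and the median of the list moved from -0.43 to -0.20. Without KC872RL and KC873RR 0 of the 9 were called, with 7 lower and a median of -0.23. Of 12 precursor genes 0 were called in either genotype in edgeR and the median was -0.15 in the knockout. Pdgfra, the receptor that marks precursors, was at 0.16 ± 0.14 and Cspg4 at 0.04 ± 0.10, and the 2 largest fold changes were Gpr17 at -1.44 ± 0.50 and Neu4 at -0.70 ± 0.29. The precursor genes too were highest in KC872RL, at a sum of 1344 CPM against 884 to 954 CPM in the rest of its group, and Gpr17 was at 387 CPM there against 71.9 to 113 CPM. Without KC872RL the median was -0.07, Gpr17 was at -0.56 ± 0.29 and Neu4 at -0.18 ± 0.15.

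Among 15 genes of sphingolipid and very long chain lipid synthesis, Cers2, Elovl7 and Gltp fell in the knockout, at -0.40 ± 0.07, -0.88 ± 0.19 and -0.89 ± 0.18. Elovl7 is counted among the mature oligodendrocyte genes as well. Without KC872RL, or without KC873RR, 0 of the 15 were called. In these fits 13 and 12 of the 15 were lower, against 14 in the reported fit. The median of the list was -0.15 in both, against -0.17 in the reported fit.

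Of 9 oligodendrocyte transcription factors, Sox10 and Myrf fell in the knockout. Sox10 is needed throughout the lineage and Myrf for the myelin genes of mature cells. Sox10 on the standard diet had 40.1, 44.4, 43.1 and 35.6 CPM in wild type and 50.2, 37.1, 40.7 and 39.5 CPM in the knockout. Sox10 was at 31.2, 37.2, 31.5 and 30.8 CPM in wild type and 23.3, 28.3, 27.2 and 31.9 CPM in the knockout on the ketogenic diet. Sox10 fell by 0.60 ± 0.11 and Myrf by 0.56 ± 0.11 in the knockout, while Olig1 and Olig2 were at -0.34 ± 0.10 and -0.28 ± 0.11. Myrf reached 65.8, 68.3, 66.7 and 49.4 CPM in wild type and 63.8, 57.5, 64.6 and 56.1 CPM in the knockout on the standard diet. Myrf on the ketogenic diet was at 50.4, 54.1, 57.8 and 51.0 CPM in wild type and 34.1, 42.7, 36.9 and 50.6 CPM in the knockout. In wild type 0 of the 9 were called, and Sox10 was at -0.32 ± 0.10. In the knockout 0 of the 9 were called without KC872RL and 1, Sox10, without KC873RR. Lower levels were found for 8 of 9 in both fits, with medians of -0.23 and -0.39, against -0.34 in the reported fit.

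Sox10 and Myrf bind short DNA motifs near myelin genes. The upstream sequences of the members were read for short motifs of these factors in the RefSeq promoter table of GRCm38.p6, which matched 27 of the 33. In the 250 bases before the start, on either strand, ACAAAG (reverse CTTTGT), the core of SOX factors, was present in 8 of 27 members, 29.6%, and in 16.5% of 27025 genes. CTGGCAC (reverse GTGCCAG), a core of MYRF, was present in 4 of 27, 14.8%, and in 4.1% of genes, and CAGCTG, an E-box that shares no site with the other letters, in 4 of 27, 14.8%, and 12.8% of genes. The 3 stretches below are shown because Cnp and Mag hold a match to both the SOX and the MYRF letters and Mobp holds 6 SOX matches. Capitals mark the matches, sequences run 5′ to 3′ on the strand of the gene, and positions count back from its start. Cnp lies at chr11:100574739-100574888 on the plus strand, 200 to 51 bases before the start, Mag at chr7:30914914-30915063 on the minus strand, 200 to 51 bases before, and Mobp at chr9:120149492-120149641 on the plus strand, 250 to 101 bases before. A match describes letters in this window and is not a binding site.
Cnp: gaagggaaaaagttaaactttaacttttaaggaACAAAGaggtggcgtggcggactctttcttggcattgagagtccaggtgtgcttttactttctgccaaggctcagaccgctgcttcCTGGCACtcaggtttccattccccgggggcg
Mag: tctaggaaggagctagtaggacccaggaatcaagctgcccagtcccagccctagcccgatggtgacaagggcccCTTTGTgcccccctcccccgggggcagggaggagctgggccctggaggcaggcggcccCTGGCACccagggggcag
Mobp: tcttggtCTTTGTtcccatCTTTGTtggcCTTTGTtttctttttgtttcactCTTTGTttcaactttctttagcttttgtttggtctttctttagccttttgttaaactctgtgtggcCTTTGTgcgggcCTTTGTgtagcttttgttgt

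Marker genes of other cell types are given beside these results. Pan-neuronal markers summed to 6964 to 8106 CPM in the knockout on the standard diet and 7612 to 8700.3 CPM on the ketogenic diet, and 0 of 8 were called. Astrocyte markers summed to 4469 to 6827 and 4378 to 5948 CPM, with 0 of 10 called. Microglia markers summed to 289 to 603 and 257 to 278 CPM with the highest values in KC872RL and KC873RR, and 0 of 10 were called at a median of -0.76, which was -0.07 without those 2 libraries. Of 5 tested blood markers 4 fell in the knockout (Hba-a1, Hbb-bs, Hbb-bt and Alas2), and the median of the list was -2.02. All 4 were still called without KC872RL alone or KC873RR alone. Without both libraries 0 were called, with 5 of 5 lower and a median of -1.79. The sum of the blood list was 62.7 to 77.6 and 43.1 to 106 CPM in wild type, against 65.8 to 113 and 17.7 to 32.5 CPM in the knockout. Thalamus markers come from a region that adjoins the hippocampus and carries myelinated tracts. In the knockout 8 of 8 were lower, with a median of -0.52 and 0 called, and they summed to 122 to 179 and 101 to 136 CPM. In wild type 4 of 8 were lower, with a median of -0.0014 and 0 called, and they summed to 139 to 159 and 127 to 138 CPM. Choroid plexus markers varied most, from 34.4 to 1079 CPM in wild type given the standard diet and 48.9 to 560.5 CPM in the knockout to 31.0 to 1052 and 32.4 to 54.5 CPM on the ketogenic diet. Meningeal fibroblast markers were lower on the ketogenic diet for 7 of 7 genes in the knockout, with a median of -0.47, and for 5 of 7 in wild type, with a median of -0.14, and 0 were called. Their sum was 68.2 to 106 and 47.0 to 79.6 CPM in the knockout and 39.4 to 76.8 and 26.9 to 65.6 CPM in wild type, and KC900RLL, KC846L and KC913RR, each low for most members, had the lowest sum of their groups. Pyramidal cell markers lay the other way, with 7 of 8 higher on the ketogenic diet in each genotype, medians of 0.30 in the knockout and 0.09 in wild type, and 0 called. They summed to 505 to 714 and 664 to 759 CPM in the knockout, lowest in KC872RL and KC873RR, and to 709 to 786 and 717 to 944 CPM in wild type. Dentate granule cell markers were higher for 4 of 6 genes in the knockout and 6 of 6 in wild type, with medians of 0.02 and 0.28 and 0 called. KC846L had the highest pyramidal and dentate granule sums of all 16 libraries, 944 and 659.5 CPM. Endothelial and mural markers were at a median of -0.06 in the knockout with 0 of 8 called. Schwann cell markers were near 0, with 4 of 5 under 1 CPM in every group. The part that these markers' cell types or the dissected tissue play in the levels of the members was not tested.

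**Figure D4:**
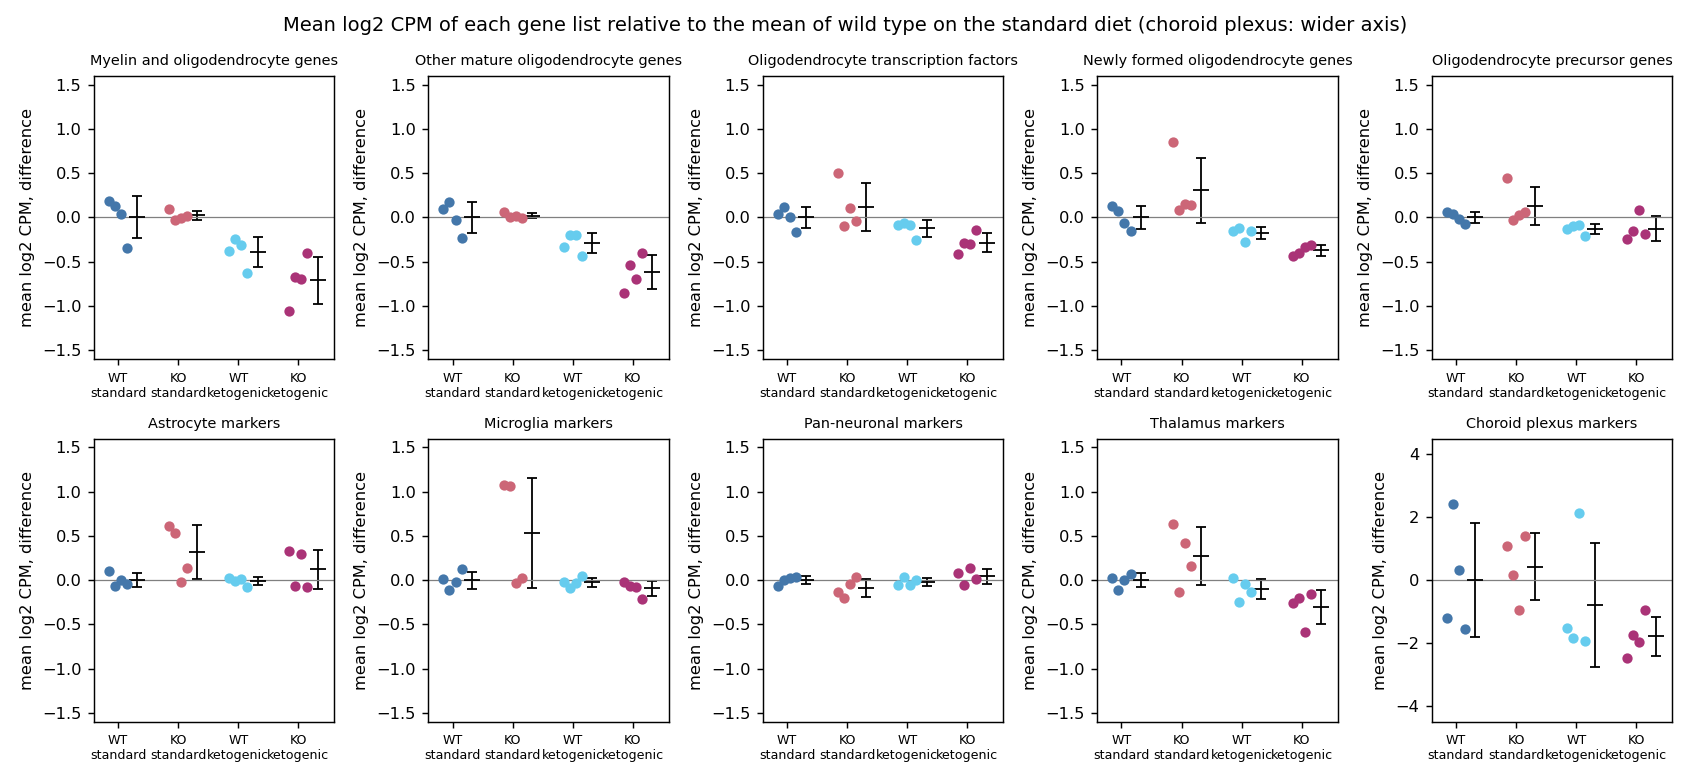
Mean log2 CPM of 10 gene lists relative to the mean of wild type on the standard diet (vertical axes, log2) by group; points are libraries and bars the group mean with its SD (n = 4). Mature oligodendrocyte lists are lower on the ketogenic diet while precursor and neuronal lists lie closer to 0. In the knockout the microglia, thalamus and choroid plexus lists also have a lower mean on the ketogenic diet, the microglia list through KC872RL and KC873RR.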

How the data were processed

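The authors deposited 1 table of raw counts per gene, with 1 column per animal. Per the labels the tissue was hippocampus; per the submitters' processing notes the build was mm10 and DESeq2 was used, with no role given. The aligner, counting program and use of strand are not given in the sources used here. Counts were whole numbers. Columns carry an animal tag, genotype and diet but no replicate number, so each was assigned to its group only. Nothing further says how the animals were housed or processed. The tests set differences between groups against the spread of libraries within groups. Animal tags run from KC842L to KC846L in wild type on the ketogenic diet and from KC913RR to KC935LL in the knockout on that diet. Those of the standard diet groups run together from KC872RL to KC900RLL. What the tag numbers stand for is not given, and diet cannot be told apart from anything that goes with them.

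edgeR 4.0.16 (R 4.3.3) was used for all tests: filterByExpr, TMM factors, a robust quasi-likelihood model with 1 coefficient per group over 16 libraries (12 residual degrees of freedom), two-sided F tests, and Benjamini-Hochberg adjustment over 17469 genes at 0.05. Standard errors came from the F statistic. CPM used effective library sizes, and log2 CPM a prior count of 2. Positions and exon lengths came from GENCODE M21 (49056 of 49315 identifiers), promoters from RefSeq. The fit was tested on simulated data. Alternatives used DESeq2 1.42.0, limma 3.58.1 and sva 3.50.0.

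The members and all gene lists were chosen with earlier results of these data known. Values per library are given for the 14 members of smallest p in the averaged diet contrast, for Mbp, Mog, Mag and Cnp, and for the 3 of smallest p in each genotype contrast and the interaction. Libraries were taken as Xist-expressing at over 100 CPM of Xist and under 10 CPM of Ddx3y. Leaving KC872RL and KC873RR out for the other gene lists was chosen after seeing the data. The result of a further gene list is not reported here.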

Additional observations from a re-analysis of the deposited data

Results flagged for a closer look

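Single libraries stood apart from the other 3 of their group in 8 of 136 groups of 4 values, by a gap past Dixon's critical value for 4 values. Chance does this in about 1 of 20 groups. Kcna1 was at 82.0 CPM in KC888LL, labelled knockout on the standard diet, where the others were at 44.6 to 47.0, and at 129.7 CPM in KC894RLL, wild type on that diet, where the others were at 116 to 118.

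Among the members, KC913RR, knockout on the ketogenic diet, was low for Opalin, at 4.62 CPM against 8.45 to 9.23, and for Fa2h, at 11.4 CPM against 23.0 to 24.3. Opalin was also low in KC900RLL, wild type on the standard diet, at 10.2 CPM against 15.3 to 15.8. Trf was low in KC846L, wild type on the ketogenic diet, at 27.2 CPM against 33.01 to 33.6. High values were Mobp in KC893RL, knockout on the standard diet, at 913 CPM against 760.3 to 781, and Tspan2 in KC935LL, knockout on the ketogenic diet, at 109 CPM against 83.8 to 87.8.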

How the results depend on the processing

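The direction of the members held more firmly than their calls. In the knockout, 20 members were called with DESeq2 size factors, with upper-quartile factors and with limma-voom, 16 without a filter and 27 with DESeq2. The share of all genes called, 1.16% in the reported fit, was 1.13%, 1.19%, 0.836%, 0.697% and 2.03% in that order. The shares without a filter and with DESeq2 are of 33151 genes, where the reported fit had 17469. As counts, 231 and 672 genes were called in them, against 202 in the reported fit. The call ended for most members with Xist as a covariate (1 called), with 1 surrogate variable (0), among Xist-expressing libraries (0), without KC872RL and KC873RR (0) and with only the compared groups (3). Of all genes 0.0401%, 0.0458%, 0.0169%, 0.0112% and 0.0535% were called under these settings. With 1 library left out the count ran from 6 to 22 and the share of all genes from 0.158% to 6.18%, the latter without KC888LL. Over all of these alternatives the median log2 fold change stayed between -0.90 and -0.68.

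Averaged over genotypes, 0 members were called among Xist-expressing libraries, with 0.00563% of all genes, and 10 without KC872RL and KC873RR, with 0.251%, and 11 to 29 with 1 library left out: 11 without KC846L, 12 without KC890RL or KC894RLL, and 14 without KC897RR, KC873RR, KC842L or KC916RRL. The share of all genes ran from 0.287% to 2.58% with 1 library left out, against 0.899% in the reported fit. The averaged median was -0.53 among Xist-expressing libraries and -0.61 without KC872RL and KC873RR, against -0.63 in the reported fit. It ran from -0.68 to -0.57 with 1 library left out. In wild type DESeq2 called 1 member, with 0.0362% of 33151 genes. Genotype and interaction contrasts called 0 members under every alternative run.

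Of the members, Il33 turned positive among Xist-expressing libraries, at 0.0270 in the knockout, 0.0586 in wild type and 0.0428 averaged, and at 0.0269 in the knockout without KC872RL and KC873RR. With 1 library left out Il33 ran from -0.224 to 0.0594 in wild type. Anln was at 0.0600 in wild type in the former setting and Ndrg1 at 0.0037 with 1 surrogate variable. The cause was not tested.

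No paired analysis was possible because the columns carry no replicate numbers. Scaling to the total count left all 132 group means of CPM within 1 SD.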
